A study of Mus musculus with 36 samples.

Results

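The genes described here are 58 genes with higher expression in early thymic progenitors than in a marrow progenitor and in a later thymocyte stage. The cells were sorted from C57BL6 mice with an age label of 1 week, which disagrees with the title of 2 arrays titled adult. The genes are 58 of the 18193 measured. Each gene was read from its probe set with the highest mean among those that name only that gene. A gene was a member when, over the arrays titled 1 to 3, its mean log2 value in early thymic progenitors was at least 0.8 above that in LSKFlt3hi IL7R+ marrow cells, at least 0.8 above that in DN2Kit+ thymocytes, and at least 6. Of the genes measured, 8496 reached the floor of 6 in these progenitors, 284 of those passed the bound against the marrow cells, 409 the bound against DN2Kit+ cells and 63 both. A further 14 genes passed both bounds under the floor. 10 genes were left out by name, and 5 of them had met the bounds, which leaves the 58. The members were chosen by these measured values, so the values of the arrays titled 1 to 3 are given as a description and were not tested.

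Gene expression was measured on 36 one-colour arrays, deposited in 2 sets that were normalized apart, so levels are compared only within a set. Set 1 holds 15 arrays, 3 for each of 5 populations. These are stem cells of the gate LSKFlt3-CD48-CD150+ (called HSC), marrow cells of the gate LSKFlt3hi IL7R+ (LSK), thymic cells of the gate ETPFlt3hi (ETP), DN2Kit+ thymocytes (DN2) and DN3 thymocytes. Each sample of set 1 is a pool of several mice, per the labels. Set 2 holds 21 arrays, titled 4 to 6 for HSC, LSK, ETP and DN3, with 4 arrays of common lymphoid progenitors (CLP), 2 of adult early thymic progenitors (titled adult) and 3 of pro-B cells. All 36 arrays, those titled adult included, carry the strain label C57BL6, a label of both sexes and an age label of 1 week. For the arrays titled adult, the title and the age label disagree, so their age is uncertain. No genotype or treatment label sets the groups apart. The labels do not say whether the samples of set 2 came from separate animals, so the p-values below measure the spread between samples, which may be technical. In sorted cells measured in bulk, fewer cells of a type and less RNA per cell cannot be told apart.

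Early thymic progenitors are the first cells of the T lineage in the thymus. They descend from marrow progenitors that enter from the blood, retain Kit and Flt3, meet Notch ligands on the thymic epithelium, and pass through the DN2 stage, where they become committed, to the DN3 stage, where the T cell receptor beta chain is tested. Interferons act on nearly every cell through the receptor pair Ifnar1 and Ifnar2. Many antiviral genes that respond carry a sequence called the interferon-stimulated response element in their promoters.

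The ETP label was set against genes that define the stage. In set 2, Flt3 had a mean of 10.38 in ETP, near the 11.12 of LSK and well above the 4.54 of DN3, and Kit of 9.57, against 8.69 and 6.78. The ETP and LSK gates select for Flt3 and the LSK gate for Kit. Flt3 in both and Kit in LSK thus follow from the sort and do not test the label. The title of the ETP gate does not name Kit. The gate may still select for it, so Kit in ETP is not taken as a test either. The T lineage commitment factor Bcl11b (5.10 against 12.04 in DN3) and the T cell receptor component Cd3e (4.49 against 11.46) were near the level of LSK. Of 19 measured T lineage genes, 3 were called higher in ETP than in LSK (0.649% of all genes). These were Thy1 (by 1.88), Gata3 (1.09) and the interleukin 2 receptor chain Il2ra (1.18). Called lower were 2 (0.759% of all genes). These were the recombinase gene Rag1 (-4.85), which is also used in early B cells, and the transcription factor Ets1 (-1.80).

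The members fall into 9 classes by the known role of each gene. There are 20 interferon-induced genes, 6 transcription factors, 6 receptors and surface proteins, 2 S100 calcium-binding proteins, 3 genes of the primary cilium, 6 genes of lipid handling, transport and metabolism, 9 of signalling, cytoskeleton and protein turnover, 3 RNA-binding proteins and 3 unnamed or little known genes. In set 1 the median member was 1.47 higher in ETP than in LSK and 1.83 higher than in DN2 on the log2 scale. The smaller of the 2 differences ran from 0.80 for Mycn to 3.18 for Glis3. Mycn, Elovl7 (0.81) and Rbm47 (0.82) lay just inside the bound, and Serpinf1 (0.7968), Oas1a (0.7967) and Spa17 (0.7945) just outside it. Gpr161 (6.03) and Zfp974 (6.06) lay just above the floor, and Gria2 (5.86) and Snx7 (5.80) just under it. The DN3 mean of set 1 was under the ETP mean in 58 of 58 members. The HSC mean was at or above it in 8: Iigp1, S100a6, Gpr161, Tdrd7, Cyria, Zfp318, Fry and Mycn. Both counts use the ETP arrays in which members had to be high. The choice thus favours a lower DN3 mean, and the counts are a description.

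The ETP arrays titled 4 to 6 entered the rule only through the probe set, the brightest on average over all 36 arrays. The difference of ETP from LSK was tested in set 2. Set 2 holds no DN2 array, so the difference from DN2 is described in set 1 alone and was not tested. The members were chosen with earlier results of these data known, so set 2 is not wholly independent of the choice. With probe sets picked on set 1 alone the rule gives 60 members, which include all 58, and 33 were again called higher than in LSK. limma was fitted to all 18193 genes over the 21 arrays of set 2, and a gene counts as called where its adjusted p is under 0.05 and its log2 values differ by 1 or more. Of the 58 members, 33 were called higher in ETP than in LSK and 0 lower, where 0.649% of all genes were called higher (1.19% of the genes that reach 6 in ETP of set 1) and 0.759% lower. In 47 members every ETP array lay above every LSK array, as in 8.49% of all genes. The median member difference was 1.36, against 0.01 over all genes, and 52 of 58 differences were above 0, as were 52.6% over all genes. The difference in set 2 was smaller than that in set 1 for 40 of the 58. Leaving out 1 array at a time gave 22 to 30 calls, with 22 without LSK replicate 5.

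**Figure D1:**
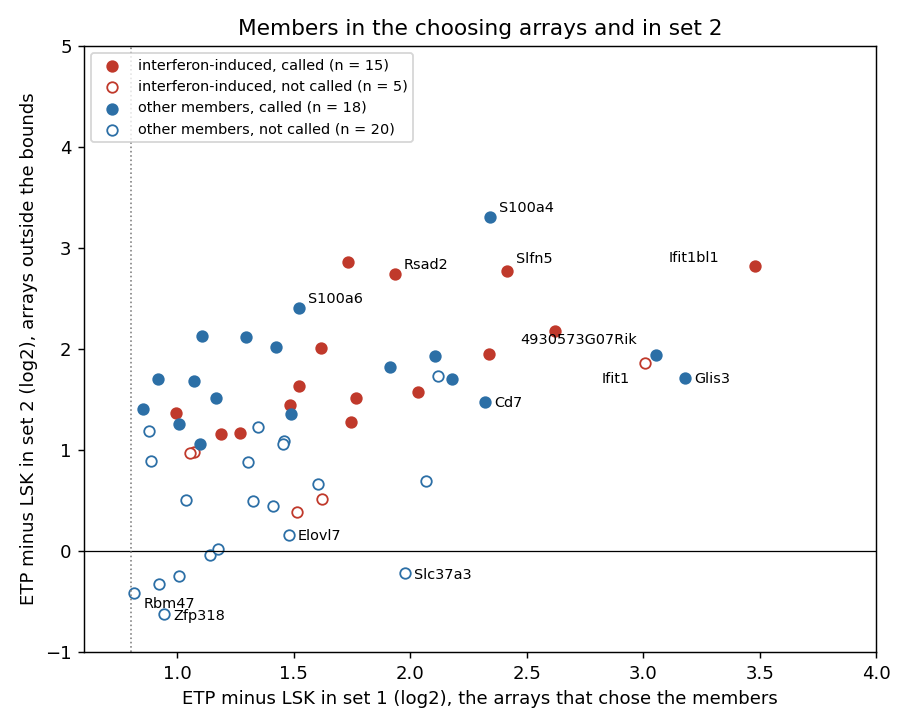
Each point is 1 of the 58 members; the x axis is ETP minus LSK (log2) in the set 1 arrays that chose it, with a dotted line at the bound of 0.8, and the y axis is the same difference in the set 2 arrays. Red marks the interferon-induced members and blue the others, filled points are the 33 members called higher in set 2, and 6 members lie under the line at 0, among them Zfp318, Rbm47 and Slc37a3.

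The same members were set against populations that the bounds did not use. Against CLP, the other marrow progenitor, 29 of 58 were called higher and 0 lower, where 0.726% of all genes were called higher (1.42% of those that reach 6) and 0.539% lower. Against DN3, 45 were called higher and 0 lower, where 3.26% of all genes were called higher (6.43% of those that reach 6) and 1.91% lower. Against pro-B cells, 39 were called higher and 0 lower, where 2.72% of all genes were called higher (5.28% of those that reach 6) and 2.54% lower. Against HSC the count was 30 higher and 2 lower, where 3.41% of all genes were called higher (6.81% of those that reach 6) and 4.75% lower. These comparisons share the ETP arrays. Median member differences were 1.32 against CLP, 1.20 against HSC, 1.90 against DN3 and 1.62 against pro-B cells, on the log2 scale, and the medians over all genes were -0.03, 0.05, -0.06 and -0.08.

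The ETP mean was the highest of the 6 populations HSC, LSK, CLP, ETP, DN3 and pro-B in 38 of 58 members, as in 7.94% of all genes. HSC was highest in 14 members, pro-B in 3, CLP in 2, LSK in 1 and DN3 in 0. In 25 members every ETP array lay above all arrays of the other 5 populations (0.616% of all genes). 16 members were called higher in ETP than in each of the 5 populations, as were 0.17% of all genes: Glis3, Cd7, Robo1, Il1r1, S100a4, Lpcat2, Ankrd6, Gm4047 and the interferon-induced Ifit3, Ifi213, Ms4a4c, Mx1, Oas3, Oasl2, Rtp4 and Usp18. At the other end, 7 members were called higher than none of the 5.

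**Figure D2:**
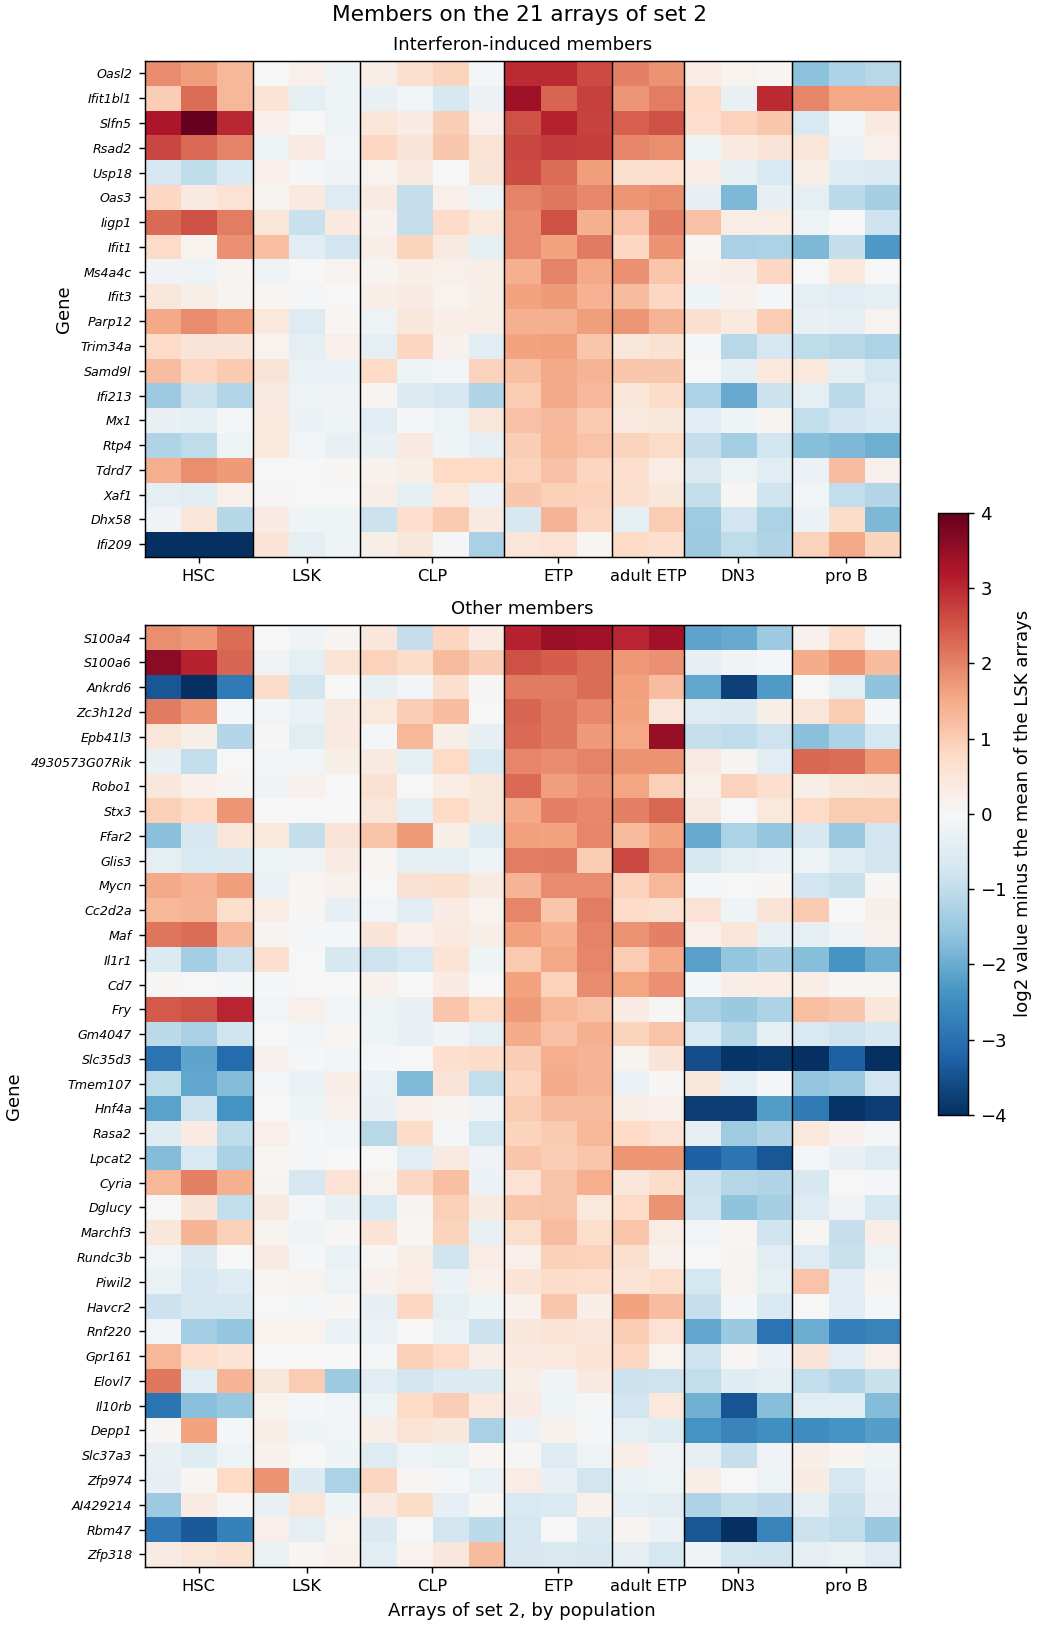
Rows are the 58 members and columns the 21 arrays of set 2, with colour giving the log2 value minus that gene's mean over the LSK arrays and ending at 4 on either side. The ETP columns are red in most rows, HSC is red in rows such as Slfn5, S100a6 and Fry, and the last rows (Slc37a3, Zfp974, AI429214, Rbm47, Zfp318) are no redder in ETP than in LSK.

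The interferon-induced members were the largest class. They include the Ifit family, which binds foreign RNA (Ifit1, Ifit3, Ifit1bl1), the oligoadenylate synthetase family (Oas3, Oasl2), the radical enzyme viperin (Rsad2), the RNA sensor homologue Dhx58, the GTPases Mx1 and Iigp1, and Usp18, which removes Isg15 from proteins and restrains the interferon receptor. Slfn5, Parp12, Rtp4, Trim34a, Samd9l, Xaf1, Tdrd7, Ms4a4c, Ifi213 and Ifi209 complete the class. The class was compiled after the members were known, so its size is a description. RefSeq promoters (build GRCm38.p6) were at hand for 46 members. The core of the interferon-stimulated response element, taken as GAAA, any 2 bases and GAAA again, was searched on both strands of the 250 bases before each start. It was present in 8 of 15 interferon-induced members (53.3%), in 0 of 31 other members and in 3.1% of 14452 genes of the arrays. A match is a description and not a shown binding site, and this search was added after the members were seen. The promoters of 6 members described next are printed to show where the element lies. Each runs 5′ to 3′ along the gene up to its start, with the matching letters in capitals (TTTC, 2 bases and TTTC where the element is on the other strand).
Ifit1 (chr19:34640639-34640888, plus strand): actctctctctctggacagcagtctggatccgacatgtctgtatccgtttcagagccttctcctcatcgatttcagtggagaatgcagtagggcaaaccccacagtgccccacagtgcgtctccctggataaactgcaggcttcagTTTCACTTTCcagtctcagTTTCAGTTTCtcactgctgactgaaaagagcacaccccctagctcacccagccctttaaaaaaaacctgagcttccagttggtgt
Ifit3 (chr19:34583279-34583528, plus strand): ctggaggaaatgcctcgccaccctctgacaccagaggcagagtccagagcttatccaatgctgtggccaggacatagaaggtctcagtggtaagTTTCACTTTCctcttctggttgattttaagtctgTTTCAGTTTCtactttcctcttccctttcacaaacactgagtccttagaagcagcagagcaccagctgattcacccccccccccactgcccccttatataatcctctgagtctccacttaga
Rsad2 (chr12:26456453-26456702, minus strand): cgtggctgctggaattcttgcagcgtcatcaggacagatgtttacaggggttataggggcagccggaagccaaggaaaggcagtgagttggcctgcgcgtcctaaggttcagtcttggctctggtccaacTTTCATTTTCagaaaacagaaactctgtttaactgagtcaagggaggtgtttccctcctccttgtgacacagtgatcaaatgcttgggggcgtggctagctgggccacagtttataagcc
Oas3 (chr5:120777660-120777909, minus strand): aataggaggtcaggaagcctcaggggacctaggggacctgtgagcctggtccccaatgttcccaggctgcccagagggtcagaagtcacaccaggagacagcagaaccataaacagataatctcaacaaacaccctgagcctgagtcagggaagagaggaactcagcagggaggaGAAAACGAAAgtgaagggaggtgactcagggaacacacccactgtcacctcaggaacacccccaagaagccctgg
Slfn5 (chr11:82951852-82952101, plus strand): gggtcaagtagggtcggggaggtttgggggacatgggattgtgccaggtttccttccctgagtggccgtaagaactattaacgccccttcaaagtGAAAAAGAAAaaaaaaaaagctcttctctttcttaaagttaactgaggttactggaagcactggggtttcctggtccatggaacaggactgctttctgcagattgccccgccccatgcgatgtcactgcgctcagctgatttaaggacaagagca
Ifi213 (chr1:173599273-173599522, minus strand): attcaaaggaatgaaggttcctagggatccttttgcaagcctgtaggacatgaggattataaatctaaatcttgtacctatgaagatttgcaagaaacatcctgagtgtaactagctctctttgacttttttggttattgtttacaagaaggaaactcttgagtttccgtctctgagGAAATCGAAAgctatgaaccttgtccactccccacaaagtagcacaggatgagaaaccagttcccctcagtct

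Ifit1 and Ifit3 carry 2 matches each in these windows, and the other 4 carry 1 each. The first letter of the match nearest the gene lay 85 bases before the start in Ifit1, 122 in Ifit3, 120 in Rsad2, 75 in Oas3, 155 in Slfn5 and 73 in Ifi213. Ifit1bl1 and Tdrd7 also held it. Ifit3 and Ifit1bl1 are neighbours on chromosome 19, with Ifit1 beyond 2 further protein-coding genes, and Ifi213 and Ifi209 are neighbours on chromosome 1.

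Of the 20 interferon-induced members, 15 were called higher in ETP than in LSK (0.649% of all genes) and 14 than in CLP (0.726%). Against DN3 it was 16 (3.26%), against pro-B cells 16 (2.72%) and against HSC 10 (3.41%). In these comparisons 0 were called lower. All 20 differences from LSK were above 0, with a median of 1.54, and so were all 20 from CLP and from DN3. Rsad2 read 9.23, 9.36 and 9.31 on the ETP arrays of set 2, against 6.35, 6.88 and 6.45 in LSK. It read 7.39, 7.07, 7.62 and 7.11 in CLP, 6.35, 6.96 and 7.08 in DN3 and 7.04, 6.33 and 6.77 in pro-B cells. The ETP arrays were above all of these without overlap, by 2.74 ± 0.23 (SE) over LSK (limma adjusted p = 4.63e-07). HSC came close, at 9.22, 8.83 and 8.54, and was not called apart (0.44 ± 0.23, adjusted p = 0.245).

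Oasl2 read 9.78, 9.78 and 9.39 in ETP and 6.76, 6.98 and 6.63 in LSK. Its lowest ETP array lay above all arrays of the other 5 populations, of which HSC was nearest at 8.69, 8.44 and 8.13. It was higher in ETP than in LSK by 2.86 ± 0.21 (adjusted p = 1.28e-07) and than in pro-B cells by 4.19 ± 0.21 (adjusted p = 1.16e-10). Oas3 read 8.97, 9.10 and 8.89 in ETP against 7.10, 7.38 and 6.45 in LSK, a difference of 2.01 ± 0.36 (adjusted p = 0.00387). Usp18 read 7.87, 7.51 and 6.94 in ETP and at most 5.79 on any array of HSC, LSK, CLP, DN3 or pro-B cells. Its difference was 2.18 ± 0.26 from LSK (adjusted p = 3.3e-05) and 2.94 ± 0.26 from HSC (adjusted p = 1.13e-07).

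Ifit3 read 8.90, 9.003 and 8.67 in ETP, 7.36, 7.24 and 7.27 in LSK and 7.73, 7.52 and 7.41 in HSC, and its ETP arrays lay above every other array outside adult ETP. The difference from LSK was 1.57 ± 0.14 (adjusted p = 1.11e-06). Ifit1 was less even: it read 8.78, 8.51 and 8.97 in ETP, and 8.10, 6.44 and 6.12 in LSK. ETP lay above LSK without overlap, but the difference of 1.86 ± 0.52 was uncalled (limma adjusted p = 0.0904). The fit shares 1 spread over the populations, and Ifit1 spread widely in LSK (SD 1.06), HSC (0.86) and DN3 (0.77). Without LSK replicate 4, the high array, the difference from LSK was 2.47 (limma adjusted p = 0.0147). Over all alternatives its adjusted p ran from 0.000813 to 0.459. Ifit1bl1 was higher in ETP by 2.83 ± 0.53 over LSK (adjusted p = 0.00548) and 3.14 ± 0.50 over CLP (adjusted p = 0.00115). Ifit genes resemble one another, and probe sets of such families may share signal.

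Ifi213, of the nucleic acid-sensing Ifi200 family, read 7.62, 8.14 and 7.91 in ETP against 6.97, 6.41 and 6.47 in LSK. It was higher by 1.27 ± 0.31 (adjusted p = 0.0332), and 5 of the 6 arrays of these groups ended the call when left out (highest adjusted p = 0.181, without ETP replicate 5). Its neighbour Ifi209 had another pattern. It was at 3.90, 4.08 and 4.05 in HSC, 8.81, 7.96 and 8.15 in LSK and 8.80, 8.89 and 8.38 in ETP. ETP and LSK overlapped (0.39 ± 0.33, limma adjusted p = 1), ETP was above HSC by 4.69 ± 0.33 (adjusted p = 4.71e-09), and pro-B cells, at 9.23, 9.82 and 9.18, were the highest.

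Members of this class also differed in how they stood to stem cells. Slfn5, a Schlafen family member, read 7.65, 8.19 and 7.80 in ETP, 5.32, 5.11 and 4.89 in LSK, and 8.35, 9.67 and 8.11 in HSC. It was called higher in ETP than in LSK (2.78 ± 0.32, adjusted p = 2.42e-05), and it was highest in HSC without a call between HSC and ETP (-0.83 ± 0.32, adjusted p = 0.0938). The GTPase Iigp1, the antiviral ADP-ribosyltransferase Parp12 and Tdrd7 likewise had their highest mean of set 2 in HSC. Iigp1 read 7.09, 7.77 and 6.64 in ETP, 5.70, 4.33 and 5.61 in LSK and 7.48, 7.77 and 7.26 in HSC. Its LSK call (1.95 ± 0.43, adjusted p = 0.0172) was lost without any of 3 arrays (highest adjusted p = 0.137, without LSK replicate 5) and with the 2 populations alone in the fit (adjusted p = 0.0519). In all 4 genes the set 2 means of LSK and CLP lay under those of HSC and ETP.

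The remaining interferon-induced members were less uniform. Mx1 (1.17 ± 0.21, adjusted p = 0.00319) and Ms4a4c (1.64 ± 0.20, adjusted p = 5.94e-05) were called against LSK and against each of the other 4 populations. Rtp4 was too (1.16 ± 0.25 over LSK), though its LSK call was lost without any of 4 of the 6 arrays (highest adjusted p = 0.105, without LSK replicate 6) and with its probe sets averaged (0.96, under the fold threshold). Trim34a (1.45 ± 0.29), Parp12 (1.51 ± 0.23) and Samd9l (1.36 ± 0.32) were called against LSK and not against HSC. Trim34a lost the call without LSK replicate 5 (adjusted p = 0.0617) and with its probe sets averaged (0.79, adjusted p = 0.133). Samd9l lost it without any of 5 arrays (highest adjusted p = 0.149, without LSK replicate 6) and with quantile normalization (adjusted p = 0.0631). Xaf1 (0.98 ± 0.28) and Tdrd7 (0.98 ± 0.27) passed neither the fold nor the adjusted p against LSK. Dhx58 was called in none of the 5 comparisons: its ETP arrays read 5.85, 7.84 and 7.31 and overlapped LSK at 6.82, 6.32 and 6.31.

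Averaged over the 20 interferon-induced members, the log2 level was 8.08 ± 0.14 (SD, n = 3) in ETP of set 2. It was 6.94 ± 0.05 (n = 3) in HSC, 6.56 ± 0.10 (n = 4) in CLP, 6.42 ± 0.24 (n = 3) in LSK, 6.21 ± 0.18 (n = 3) in DN3 and 6.05 ± 0.16 (n = 3) in pro-B cells. The order of LSK and CLP, of LSK and DN3, and of DN3 and pro-B cells did not go beyond their spread. In set 1, whose ETP, LSK and DN2 arrays chose the members, it was 7.73 ± 0.30 in ETP, 6.34 ± 0.15 in HSC, 5.91 ± 0.18 in LSK, 5.87 ± 0.24 in DN2 and 5.65 ± 0.18 in DN3 (n = 3 each).

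**Figure D3:**
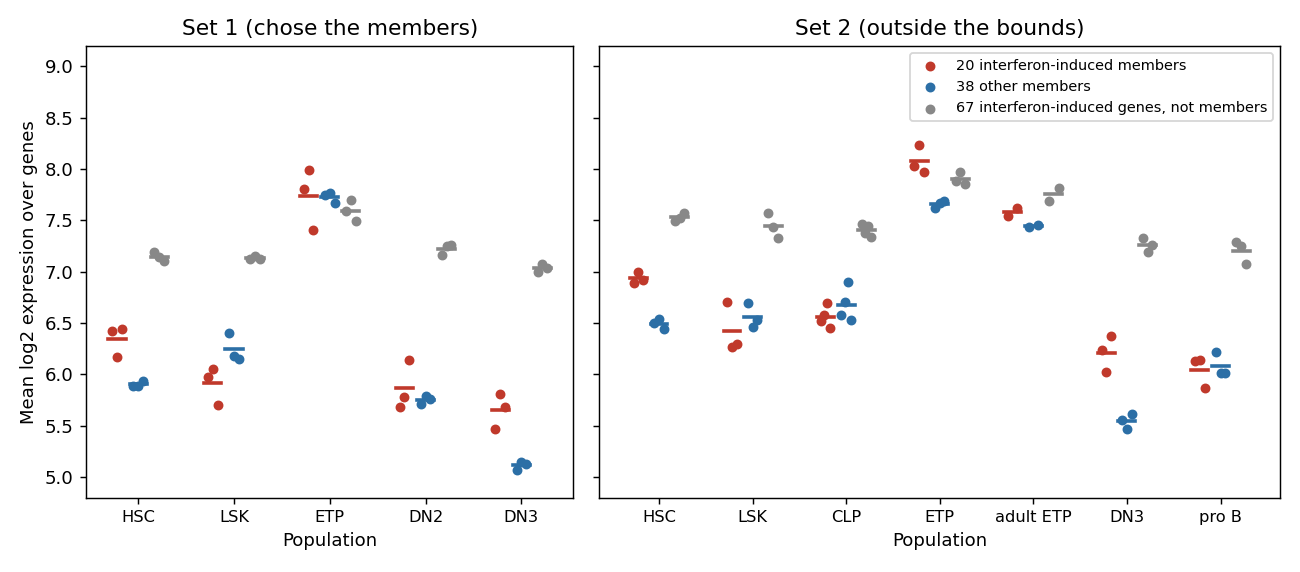
Points are arrays and short lines population means; the y axis is the mean log2 value over the 20 interferon-induced members (red), the 38 other members (blue) and 67 interferon-induced genes that are no members (grey), with set 1 on the left and set 2 on the right. In set 2 the red ETP arrays lie from 7.98 to 8.23 and the adult ETP arrays at 7.54 and 7.62, above all other red points.

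Of 86 measured genes on a list of interferon-induced genes, also compiled after the members were seen, 19 are members (Ifit1bl1 is not on it). Of the 67 that are not, 4 were called higher in ETP than in LSK (0.649% of all genes) and 1 lower (0.759%). The median difference of the 67 was 0.33, and 59 of 67 were above 0, against 52.6% of all genes. The choice of members by ETP against LSK separates these genes from the members, so the groups were not compared. The 4 were the exonuclease Isg20 (1.60), the RNA sensor Ifih1 (1.65), and the membrane proteins Ifitm1 (1.78) and Ifitm2 (1.13), and the 1 was the lectin Lgals9 (-1.04). Of the 67, 8 were called higher against CLP (0.726% of all genes) and 9 against HSC (3.41%). Against DN3 it was 14 (3.26%) and against pro-B cells 25 (2.72%), with 1 called lower against pro-B cells (2.54%). Among genes that reach 6 in ETP of set 1, the shares called higher were 1.19% against LSK and 1.42% against CLP. They were 6.81% against HSC, 6.43% against DN3 and 5.28% against pro-B cells. Of 10 measured interferon ligand genes, 0 were called in ETP against LSK, HSC or DN3, and Ifnb1 had a mean of 4.73 in ETP and 4.70 in LSK. Its means lay from 4.55 to 5.13 over the populations of set 2, under the array medians of 5.84 to 5.95. For genes at such low levels the absence of a call does not show equal expression. Of the 10 measured receptor and signalling genes that are no members, 0 were called against LSK, with Ifnar1 at 8.33 in ETP and 8.94 in LSK, Ifnar2 at 10.45 and 10.57, and Irf9 at 7.67 and 7.39.

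Of the 6 transcription factors, 3 were called higher in ETP than in LSK (0.649% of all genes). Glis3, a zinc finger factor of the Gli-similar family known from pancreas and thyroid, had the largest margin of all members in set 1, at 7.56, 7.20 and 6.66 in ETP and at most 4.11 on every LSK, DN2 and DN3 array. In set 2 it read 6.56, 6.58 and 5.53 in ETP, 4.32, 4.35 and 4.84 in LSK and 3.89 to 4.15 in HSC. The ETP arrays lay above all arrays but those of adult ETP, by 1.72 ± 0.25 over LSK (adjusted p = 0.000443) and 2.15 ± 0.25 over DN3 (adjusted p = 5.49e-06).

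Maf, a basic leucine zipper factor, read 8.17, 7.96 and 8.50 in ETP and 6.65, 6.47 and 6.47 in LSK (1.68 ± 0.23, adjusted p = 0.000207), and it was as high in HSC, at 8.69, 8.77 and 7.83. With the mean of its 6 probe sets in place of the brightest, the difference from LSK was 0.49 (adjusted p = 0.121), and over all alternatives the adjusted p ran from 9.16e-07 to 0.121. Mycn, the N-Myc proto-oncogene, read 9.22, 9.76 and 9.77 in ETP, 7.63, 7.96 and 8.04 in LSK and 9.38, 9.26 and 9.55 in HSC (1.70 ± 0.23 over LSK, adjusted p = 0.00015). In set 2, Maf and Mycn were thus high in HSC and ETP and lower in LSK and CLP. In set 1 this held for Mycn over HSC and LSK, but Maf had its lowest mean in HSC, at 6.03 against 6.76 in LSK and 7.83 in ETP.

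Hnf4a, a nuclear receptor best known from liver and gut epithelium, was graded. It read 9.56, 9.81 and 9.79 in ETP, 8.52, 8.36 and 8.71 in LSK, 6.38, 7.69 and 6.14 in HSC and 4.78, 4.78 and 6.30 in DN3. The ETP arrays were the highest throughout, yet the difference of 1.19 ± 0.38 from LSK was uncalled (adjusted p = 0.207). It was called with array weights, with probe sets averaged and with the 2 populations alone in the fit (adjusted p from 0.00313 to 0.0161), while those from HSC (2.98 ± 0.38, adjusted p = 1.48e-05) and DN3 (4.43 ± 0.38, adjusted p = 1.01e-07) were called. The zinc finger gene Zfp318 went the other way from set 1. Its ETP arrays, at 7.33, 7.36 and 7.33, lay below all LSK arrays (7.71, 8.03 and 8.15) and below all HSC arrays (8.28, 8.44 and 8.57), and it was called lower than in HSC (-1.09 ± 0.28, adjusted p = 0.0113). Zfp974, a further zinc finger gene, was not called in any comparison (-0.24 ± 0.53 from LSK), and LSK replicate 4 read 7.09 against 4.75 and 4.04 on the others.

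All 6 receptor and surface members were called higher in ETP than in HSC (3.41% of all genes) and than in DN3 (3.26%). Against LSK it was 3 (0.649%). Cd7, an immunoglobulin family protein of early T and natural killer cells, read 6.55, 5.89 and 6.85 in ETP and from 4.90 to 5.27 on all 16 arrays of HSC, LSK, CLP, DN3 and pro-B cells. It was higher by 1.48 ± 0.18 than in LSK (adjusted p = 5.94e-05). Robo1, a receptor for Slit guidance proteins, read 7.33, 6.73 and 6.89 in ETP and 4.88, 5.23 and 5.06 in LSK (1.93 ± 0.21, adjusted p = 1.43e-05), with DN3, at 5.27 to 5.99, the nearest population. Its probe set was 1 of 3. Another read a larger difference of 3.83 from LSK, and the last read 0.02, at 3.88 in ETP and 3.85 in LSK.

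Il1r1, the signalling receptor for interleukin 1, read 7.66, 8.16 and 8.58 in ETP, 7.25, 6.63 and 5.96 in LSK and 4.43, 5.06 and 5.27 in DN3. It was higher in ETP than in LSK by 1.52 ± 0.36 (adjusted p = 0.0332), a call that 4 of the 6 arrays ended when left out (highest adjusted p = 0.246, without LSK replicate 6). The call was also lost with its probe sets averaged (0.82) and with the 2 populations alone in the fit (adjusted p = 0.0703). Il1r1 was higher than in DN3 by 3.21 ± 0.36 (adjusted p = 3.79e-06). Ffar2, the receptor for short-chain fatty acids, read 8.50, 8.45 and 8.80 in ETP and 7.27, 5.90 and 7.37 in LSK, and CLP reached 8.54. Its difference of 1.74 ± 0.52 from LSK was uncalled (adjusted p = 0.141), and with array weights it was called (1.88, adjusted p = 0.0056). Havcr2, which encodes Tim-3, was 0.51 ± 0.29 above LSK (adjusted p = 0.926), and Il10rb, a chain shared by the receptors for interleukin 10 and type III interferon, was level with LSK (0.02 ± 0.46, adjusted p = 1) and 2.06 ± 0.46 above HSC (adjusted p = 0.00375). Of the 38 measured genes on a list of cytokine receptors, 5 were called higher in ETP than in LSK (0.649% of all genes). The 1 called lower (0.759%) was the interleukin 7 receptor Il7r (-2.42), which the LSK gate selects for.

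**Figure D4:**
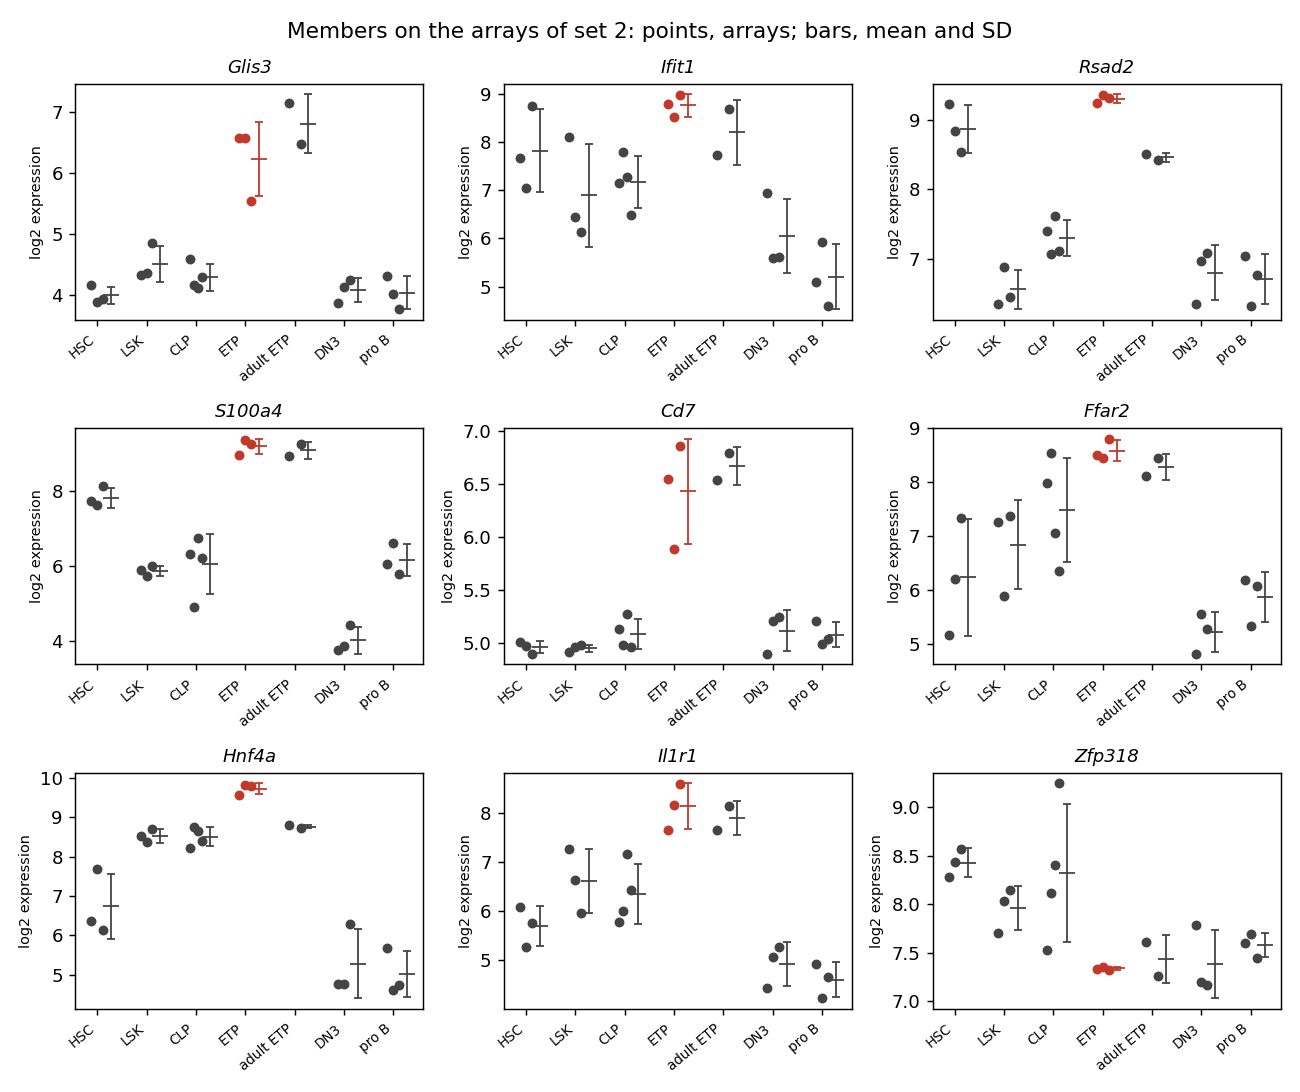
Each panel shows 1 member on the arrays of set 2, with log2 expression on the y axis (not starting at 0), points for arrays, ETP in red, and bars for mean and SD of each population. Glis3 and Cd7 separate ETP and adult ETP from all other populations, Rsad2 is also high in HSC, Ffar2 and Ifit1 spread widely in LSK and CLP, and the ETP arrays of Zfp318 lie below those of LSK.

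The calcium-binding pair S100a4 and S100a6, 2 genes of the S100 cluster on chromosome 3 with 1 protein-coding gene between them, held the largest differences from LSK outside the interferon class. S100a4 read 8.96, 9.35 and 9.25 in ETP, 5.91, 5.73 and 6.00 in LSK, 7.72, 7.62 and 8.12 in HSC and 3.76, 3.88 and 4.43 in DN3. ETP was above all of them, by 3.31 ± 0.33 over LSK (adjusted p = 4.47e-06), 1.36 ± 0.33 over HSC (adjusted p = 0.00668) and 5.16 ± 0.33 over DN3 (adjusted p = 1.3e-09). S100a6 read 7.32, 7.17 and 6.99 in ETP and 4.60, 4.37 and 5.29 in LSK (2.41 ± 0.26, adjusted p = 1.14e-05), but 8.35, 7.83 and 7.08 in HSC, which overlapped ETP. Of the 2, S100a4 alone was called above HSC.

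The 3 cilium members were Cc2d2a and Tmem107, both of the ciliary transition zone, and Gpr161, a ciliary receptor that restrains Hedgehog signalling. Cc2d2a read 6.18, 5.31 and 6.26 in ETP and 4.50, 4.25 and 3.89 in LSK (1.70 ± 0.30, adjusted p = 0.00331). Tmem107 read 6.71, 7.34 and 7.21 in ETP and 5.80, 5.63 and 6.12 in LSK, without overlap and uncalled (1.23 ± 0.42, adjusted p = 0.247). It was called with array weights (adjusted p = 0.0166) and with the 2 populations alone (adjusted p = 0.0159), and its other probe sets differed by -0.12 and 0.01. Gpr161 was uncalled in all 5 comparisons, with the highest mean in HSC. Of 38 further cilium genes, from a list compiled after the members were seen, 0 were called against LSK, with a median difference of 0.05.

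Among the lipid, transport and metabolism members, Lpcat2, which makes platelet-activating factor and its precursors, read 9.23, 9.09 and 9.21 in ETP, 8.18, 8.06 and 8.10 in LSK and 4.83, 5.19 and 4.67 in DN3. It was called against all 5 populations (1.07 ± 0.23 over LSK, adjusted p = 0.0144, and 4.28 ± 0.23 over DN3, adjusted p = 6.68e-11), and 4 of 6 left-out arrays ended the LSK call (highest adjusted p = 0.0681, without LSK replicate 5), as did averaging its probe sets (0.78). Slc35d3, of the nucleotide sugar transporter family, read 8.90, 9.36 and 9.27 in ETP and 8.08, 7.86 and 7.83 in LSK, and at most 5.82 on all HSC, DN3 and pro-B arrays. Its call against LSK (1.26 ± 0.28, adjusted p = 0.0214) was lost without any of 5 arrays (highest adjusted p = 0.122, without ETP replicate 5). Slc35d3 was thus high in LSK, CLP and ETP and low in HSC, DN3 and pro-B cells.

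Stx3, a syntaxin of membrane fusion, was called against LSK (1.82 ± 0.26, adjusted p = 0.000326) and not against HSC. Dglucy, the D-glutamate cyclase, was not called against LSK (0.89 ± 0.39) and was 2.14 ± 0.39 above DN3 (adjusted p = 0.0009). The sugar phosphate exchanger Slc37a3 and the fatty acid elongase Elovl7 were uncalled in all 5 comparisons, although Slc37a3 had been 1.98 higher in ETP than in LSK in set 1. In set 2 Slc37a3 read 6.54, 6.00 and 6.30 in ETP and 6.69, 6.47 and 6.34 in LSK.

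Of the 9 signalling, cytoskeleton and turnover members, 3 were called higher against LSK (0.649% of all genes) and 8 against DN3 (3.26%). Ankrd6, or Diversin, which acts between Wnt and planar polarity signalling, read 10.70, 10.71 and 10.88 in ETP, 9.37, 7.89 and 8.64 in LSK and 5.21, 4.57 and 5.80 in HSC. It was higher than in HSC by 5.57 ± 0.46 (adjusted p = 4.57e-08), the largest difference of any member in these comparisons, and than in LSK by 2.13 ± 0.46 (adjusted p = 0.0145). 5 of 6 left-out arrays ended the LSK call (highest adjusted p = 0.112, without LSK replicate 5). The membrane skeleton protein Epb41l3 read 8.78, 8.63 and 8.24 in ETP and 6.58, 6.09 and 6.91 in LSK (2.02 ± 0.48, adjusted p = 0.0284), and each of the 6 arrays ended that call when left out (highest adjusted p = 0.159, without LSK replicate 5).

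Fry, a microtubule-binding scaffold, was called higher than in LSK (1.41 ± 0.30, adjusted p = 0.0143) and lower than in HSC (-1.28 ± 0.30, adjusted p = 0.00529). It read 8.44, 8.07 and 7.92 in ETP, 6.62, 6.95 and 6.63 in LSK and 9.19, 9.29 and 9.79 in HSC, so ETP lay between them without overlap. The LSK call was lost without ETP replicate 4, LSK replicate 4 or LSK replicate 6 (highest adjusted p = 0.0988, without ETP replicate 4), and when its probe sets were averaged (0.46, adjusted p = 0.0555). The ubiquitin ligases Rnf220 and Marchf3, the Ras inactivator Rasa2 and the Rac1-binding Cyria differed from LSK by 0.50 to 1.09 without a call and were called higher than in DN3, by 2.67, 1.16, 2.08 and 2.12. Of these 4, Marchf3, Rasa2 and Cyria were called against LSK in at least 1 alternative. Depp1, a target of Foxo factors, was level with LSK (-0.04 ± 0.40) and 2.45 ± 0.40 above DN3 (adjusted p = 0.000322). Rundc3b, a RUN domain protein, was called against pro-B cells alone of the 5 (1.22 ± 0.29, adjusted p = 0.00789). Cyria and Mycn are neighbours on chromosome 12, and Parp12 and Slc37a3 lie on chromosome 6 with 1 protein-coding gene between them.

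Of the RNA-binding members, Zc3h12d, an RNase of the Regnase family, read 6.83, 6.62 and 6.43 in ETP and 4.39, 4.25 and 4.87 in LSK. It was called higher (2.12 ± 0.45, adjusted p = 0.0144), though not without any of 4 arrays (highest adjusted p = 0.078, without LSK replicate 5). The Piwi protein Piwil2 was 0.67 ± 0.29 above LSK (adjusted p = 0.587) and was called against HSC alone. Rbm47 was lower in ETP than in LSK by -0.42 ± 0.35, uncalled (adjusted p = 1), and 2.56 ± 0.35 above HSC (adjusted p = 3.23e-05). Of the little known genes, Gm4047 read 10.38, 10.07 and 10.33 in ETP and at most 8.98 elsewhere outside adult ETP (1.36 ± 0.17 over LSK, adjusted p = 9.56e-05). 4930573G07Rik read 6.65, 6.61 and 6.70 in ETP and 4.59, 4.60 and 4.94 in LSK (1.94 ± 0.31, adjusted p = 0.00105), and 6.9996, 6.93 and 6.43 in pro-B cells, which it did not separate from ETP. AI429214 was uncalled throughout.

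Between adult ETP and ETP, limma called 0 of 58 members in either direction, where 0.0055% of all genes were called higher and 0.066% lower. At an unadjusted p under 0.05, 2 members were higher in adult ETP (6.36% of all genes) and 15 lower (5.12% of all genes, and 10.2% of the genes that reach 6 in ETP of set 1). Every adult array lay below every ETP array in 28 members (16.5% of all genes). Both adult arrays lay above every LSK array in 42 members (28.8% of all genes) and above every DN3 array in 51 (15.7% of all genes). The member differences were above 0 in 16 of 58, where 56.6% of all genes and 32.3% of the genes that reach 6 in ETP of set 1 were above 0, so the count is near that of genes at such levels. The median member difference was -0.30 on the log2 scale, against 0.05 over all genes and -0.13 over the genes that reach 6.

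Among the interferon-induced members 18 of 20 were lower in adult ETP, with a median of -0.47. Of all genes that reach 6 in ETP of set 1, 32.3% had differences above 0, and their median was -0.13. The mean over the class was 7.58 ± 0.06 (SD, n = 2), under the 8.08 of ETP and above every other population of set 2. Usp18 read 5.90 and 5.97 in adult ETP against 7.87, 7.51 and 6.94 in ETP, without overlap, and its difference of -1.50 ± 0.29 was the nearest to a call (adjusted p = 0.0524). Oasl2 read 8.80 and 8.58 against 9.78, 9.78 and 9.39 (-0.96 ± 0.24, adjusted p = 0.178). Outside the class, Tmem107 (-1.34 ± 0.46, adjusted p = 0.314) and Fry (-1.22 ± 0.34, adjusted p = 0.244) had the lowest differences and Havcr2 (0.91 ± 0.32, adjusted p = 0.326) the highest. Havcr2 read 7.19 and 6.84 in adult ETP, above all 19 other arrays. Immediate early and heat shock genes, which respond to handling of cells, moved with this comparison: 17 of 18 were higher in adult ETP, with a median difference of 1.33 and 0 called. The list also moved between ETP and the marrow populations of set 2, with a median of -0.56 and 3 of 18 called lower against LSK and of -1.74 and 10 called lower against HSC. In set 1 its summed level ran from 12.96 to 13.67 in ETP and from 14.50 to 14.97 in LSK. The part of these genes in the member differences was not tested. Of 9 measured fetal and neonatal genes, 2 were called lower in adult ETP than in ETP (0.066% of all genes) and 0 higher (0.0055%). The median difference of the 9 was -0.24. Their summed level ran from 10.55 to 10.75 in adult ETP and from 11.73 to 11.94 in ETP of set 2. Their part in the member differences was not tested either.

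Markers of other cells were set beside the ETP against LSK comparison. Of 14 macrophage markers, 15 dendritic cell markers, 10 late granulocyte markers and 10 thymic epithelial markers, 0 were called. The summed level of the macrophage list ran from 9.04 to 9.33 in ETP and from 9.27 to 9.64 in LSK on the log2 scale, and that of the dendritic list from 11.28 to 11.38 and from 11.63 to 11.69, so neither was higher in ETP. Other lists held genes called higher in ETP, 1 each: the mast cell protease Cpa3 (2.04) of 10 mast cell and basophil markers, the carbonic anhydrase Car2 (1.44) of 15 megakaryocyte and erythroid markers, and the growth factor receptor Pdgfrb (1.28) of 11 stromal and endothelial markers. Summed levels were 8.91 to 9.13 in ETP and 8.59 to 8.82 in LSK for the mast cell list, and 11.70 to 11.84 and 11.35 to 11.45 for the megakaryocyte list, and those of the stromal list overlapped. In ETP, Adgre1, which encodes the macrophage antigen F4/80, had a mean of 4.04 and C1qa of 4.20, against 3.78 and 4.32 in LSK. Of 18 natural killer and innate lymphoid markers, 3 were called higher (0.649% of all genes): Nkg7 (1.09), Gzma (1.51) and the member Cd7. The summed level of this list ran from 11.63 to 11.74 in ETP and from 11.05 to 11.28 in LSK. The natural killer receptor Ncr1 was at 3.75 in ETP and 3.60 in LSK. The part of these cells in the member differences was not tested. Of 17 B lineage markers, 11 were called lower in ETP than in LSK (0.759% of all genes) and 0 higher.

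The letters bound by factors of early T cell development were also searched in the same 250 bases of the 46 members with a promoter, on both strands. The RBPJ core TGGGAA, through which Notch acts, was present in 16 of 46 members (34.8%) against 24.2% of 14452 genes. It was in 14 of 31 members outside the interferon class (45.2%) and in 2 of 15 within it (13.3%). The TCF and LEF letters CTTTGA were present in 6 of 46 members (13%) against 14.2% of genes, and the GATA letters AGATAA in 5 of 46 (10.9%) against 8.8%. The RUNX letters TGTGGT were in 8 of 46 (17.4%) against 13.7%, the PU.1 letters GAGGAAG in 4 of 46 (8.7%) against 12.7%, and the E-box CAGCTG in 10 of 46 (21.7%) against 14.9%. A gene counted where any of its listed starts held the letters, and overlaps between motifs were kept. A match or its absence says nothing of whether the factor binds.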

How the data were processed

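Total RNA of sorted mouse cells was amplified, labelled with biotin and hybridised to 36 one-colour arrays, per the labels' protocols. The deposited values are on a log2 scale and were made with RMA, per the submitters' processing notes. Their log base is read from the values and is not stated, and the RMA version is not given in the sources used here. The median of an array lay between 5.12 and 5.22 in set 1 and between 5.84 and 5.95 in set 2, and the sets were not compared with each other. Of 45101 probe sets, 64 were controls and 34945 named 1 gene by the platform annotation, and 204 of these had no current match and kept their symbol. For each gene the probe set brightest on average over the 36 arrays was used, which left 18193 genes. 37 members have several probe sets, and 14 are read by a probe set of the types that can match several transcripts or genes. There is no read depth on arrays, so precision is set by how many there are.

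The functions lmFit and eBayes of limma 3.58.1 (R 4.3.3) were applied to all genes over the 21 arrays of set 2, with 1 mean per population and a shared spread. P-values were Benjamini-Hochberg adjusted over all genes in each comparison. The fit was checked on simulated data. Python 3.11.15 with pandas 2.3.3, numpy 2.4.6 and matplotlib 3.10.9 made tables and plots. The members and lists were chosen with earlier results of these data known. Members are named by their set 1 margin (the 24 largest, and up to 4 per class), nearness to the bound, the 5 lowest differences in set 2, and presence on a list. The other 8 members (Ankrd6, Cyria, Depp1, Dglucy, Fry, Havcr2, Maf, Rasa2) were named after their values were seen, so that every member is accounted for. Alternatives were the arrays in the fit, the fold threshold, the scaling, the choice of probe set, a filter on low values, array weights, a bound of 1, the title number as a block and leaving out each array. Of 18 correlations between deviations of same-numbered arrays, from -0.189 to 0.205, 2 were above 0.1, so the title numbers were not taken as pairs.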

Additional observations from a re-analysis of the deposited data

Results flagged for a closer look

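1 value among the members stood far from the rest of its group. Havcr2, which encodes Tim-3, read 6.43 on CLP replicate 2, while the other 3 CLP arrays lay at 5.41 or lower, so the gap made up 0.839 of the range of the 4 arrays. Chance alone marks about 1 in 20 such groups. The ETP arrays read 5.77, 6.69 and 5.84, so ETP and CLP overlapped through this array.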

How the results depend on the processing

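The counts of members called higher in ETP kept within 1.5 times their value under each alternative run. Against LSK (33) they ran from 27 to 39 with other settings and from 22 to 30 when 1 array was left out. Against CLP (29) the ranges were 26 to 35 and 25 to 31, against HSC (30) 25 to 32 and 29 to 31, against DN3 (45) 35 to 47 and 43 to 46, and against pro-B cells (39) 33 to 41 and 35 to 39. The lowest counts against HSC, DN3 and pro-B cells with other settings came with the bound of 1 or the mean of probe sets, the former leaving 43 members. Choosing probe sets by set 1 alone gave 60 members, which include all 58. With the title number as a replicate block, over the 12 numbered arrays of HSC, LSK, ETP and DN3, the counts were 27 against LSK, 31 against HSC and 47 against DN3. The title numbers were not taken as pairs, and whether they pair the samples is not known. The block ended the LSK calls of Ifi213, Ifit1bl1, Il1r1, Lpcat2, Rtp4 and Zc3h12d, with adjusted p from 0.05002 to 0.110 (0.0811 for Ifit1bl1). Between adult ETP and ETP the count of 0 became 1 with arrays centred on their median, 1 with the mean of probe sets, 1 with genes under a mean of 5 left out and 4 with array weights, and 0 to 1 with 1 array left out (1 without ETP replicate 6). Over all genes, array weights called 40 higher and 89 lower there, against 1 and 12, and 6 other settings called 2 to 5 higher and 10 to 18 lower. Without the fold threshold the counts over all genes were 1529 and 1323 against HSC, 954 and 562 against DN3, 960 and 1203 against pro-B cells and 202 and 135 against CLP. Of the 33 members called against LSK, 19 kept the call in every alternative, and 12 lost it without at least 1 array. Of the 25 uncalled, 7 were called in at least 1 alternative. 0 calls reversed. The uncalled differences of Depp1, Elovl7, Il10rb and Zfp974 from LSK changed sign among the alternatives, the widest running from -0.87 to 0.66 for Zfp974. The cause of these shifts was not tested.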
